A study of Mus musculus with 12 samples.

Results

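Long shared H3K27me3 domains are stretches of at least 5000 bp that lay under H3K27me3 in immature cortical interneurons (CINs) and in the other cells of the same cortex (non-CINs), in every replicate. Peaks 500 bp or less apart were merged in each of the 4 H3K27me3 lists, and the stretches covered by all 4 merged lists were kept when they were 5000 bp or longer. This gave 954 domains among 11563 shared stretches (8.25%). The domains covered 10.99 Mb, which was 49.0% of the 22.44 Mb shared by the 4 lists. The domains were chosen by their presence and length in the H3K27me3 lists, so both are given as a description with no test.

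All pups were *Gad67-GFP* heterozygotes at postnatal day 2, and no group was treated. GFP in this line marks cells that use *Gad1*, which encodes the GABA-synthesizing enzyme Gad67. The cortex was dissected, the tissue of 2 to 3 litters was pooled for a sample, and the cells were sorted into GFP+ CINs and GFP- non-CINs. Non-CINs are thus a mixture of excitatory neurons, glia and other cells of the cortex. Native ChIP, in which chromatin is not cross-linked, was performed for H3K27me3 and H3K27ac in 2 replicates of each population, which gives 8 lists of broad peaks. The 4 input samples entered only through the authors' peak calling.

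H3K27me3 is placed by the Polycomb repressive complex that contains EZH2 or EZH1, and it marks genes that are kept silent. In mammals it is often found at CpG-rich promoters of developmental regulators, and in cells where such a gene was never switched on it can spread over the whole gene or gene cluster. H3K27ac sits on the same lysine at active promoters and enhancers, so 1 histone tail cannot carry both marks at that residue. Each sample here is a population of many cells, so peaks of both marks at the same place can come from different cells, alleles or neighbouring nucleosomes. Fewer cells that carry a mark and less of the mark in each cell likewise cannot be told apart.

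Promoter sequences of the domains were rich in CpG. They came from RefSeq (GRCm38.p6, the mm10 assembly), where each entry was read as the 250 bases before the start of a RefSeq transcript. A gene can have several transcript starts, and the windows of *Hoxc4*, *Dlx1*, *Fezf2* and *Grb10* lie inside the gene as its outermost annotated start defines it. The letters CG, which read the same on both strands, were counted in each. Of 32851 promoters, 691 had their start in a domain. These held a median of 12 CG and 61.4% of them held at least 10, against a median of 5 and 37.3% among the other 32160. The sequences below are those of the first genes with an entry among the longest domains without H3K27ac (*Hoxc4*, *Hoxb1*), among the domains with the most extra H3K27ac in CINs (*Dlx1*, *Sp9*) and among those with the most extra H3K27ac in non-CINs (*Fezf2*, *Grb10*). They are shown as examples of transcript starts in these domains, and capitals mark each CG.
*Hoxc4*, chr15:103034145-103034394, plus strand: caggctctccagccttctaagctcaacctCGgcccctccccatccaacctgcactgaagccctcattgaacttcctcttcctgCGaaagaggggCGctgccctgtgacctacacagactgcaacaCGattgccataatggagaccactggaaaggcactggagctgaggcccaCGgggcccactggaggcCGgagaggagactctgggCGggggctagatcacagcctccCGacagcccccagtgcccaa
*Hoxb1*, chr11:96365508-96365757, plus strand: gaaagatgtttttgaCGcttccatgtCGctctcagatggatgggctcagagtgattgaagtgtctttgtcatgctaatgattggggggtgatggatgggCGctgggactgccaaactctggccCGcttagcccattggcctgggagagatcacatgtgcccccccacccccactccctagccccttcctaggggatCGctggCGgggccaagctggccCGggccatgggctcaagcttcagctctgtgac
*Dlx1*, chr2:71529195-71529444, plus strand: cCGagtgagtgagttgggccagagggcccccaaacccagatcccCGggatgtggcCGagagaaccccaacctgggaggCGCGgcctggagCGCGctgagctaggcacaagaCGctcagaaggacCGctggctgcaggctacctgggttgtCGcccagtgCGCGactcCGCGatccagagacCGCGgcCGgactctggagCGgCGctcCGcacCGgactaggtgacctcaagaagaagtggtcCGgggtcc
*Sp9*, chr2:73271676-73271925, plus strand: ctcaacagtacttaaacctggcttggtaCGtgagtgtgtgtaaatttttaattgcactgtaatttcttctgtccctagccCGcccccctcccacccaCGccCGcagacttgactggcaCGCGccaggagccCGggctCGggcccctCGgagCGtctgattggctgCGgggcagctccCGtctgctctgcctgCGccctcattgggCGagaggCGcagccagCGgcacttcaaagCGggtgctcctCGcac
*Fezf2*, chr14:12345866-12346115, minus strand: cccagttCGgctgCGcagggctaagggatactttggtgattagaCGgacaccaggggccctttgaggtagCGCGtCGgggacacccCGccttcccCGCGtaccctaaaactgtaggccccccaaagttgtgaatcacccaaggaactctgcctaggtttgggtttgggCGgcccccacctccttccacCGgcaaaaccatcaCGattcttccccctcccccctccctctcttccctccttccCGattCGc
*Grb10*, chr11:12027972-12028221, minus strand: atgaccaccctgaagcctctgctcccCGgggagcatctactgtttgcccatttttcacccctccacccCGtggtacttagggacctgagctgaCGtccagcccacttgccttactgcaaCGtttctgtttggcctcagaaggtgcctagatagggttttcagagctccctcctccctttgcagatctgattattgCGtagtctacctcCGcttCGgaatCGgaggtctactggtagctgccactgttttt
*Dlx1* held 22 CG, as many or more of which were found in 14.8% of all promoters, and *Sp9* held 18 (21.7%). *Fezf2* held 14 (29.4%). The windows of *Hoxc4* and *Grb10* held 8 each (43.0%) and that of *Hoxb1* held 7 (46.3%), so they were close to the median over all promoters, which was 6. Over their whole length the 954 domains had a median GC content of 47.5% and 20.3 CG per kb, against 45.9% and 11.9 CG per kb in the shorter shared stretches. Domains with a protein-coding TSS had a median of 25.9 CG per kb, and domains without one had 12.5.

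The domains also covered 12 of 1005 annotated miRNA hairpins (1.19%). Of these, 5 lay inside the *Hoxc*, *Hoxb*, *Hoxa* and *Hoxd* domains and belong to the miR-10 and miR-196 families, whose known targets include *Hox* transcripts. The mature sequences below are from RefSeq, and capitals mark the seed (bases 2 to 8), the part that pairs with a target.
mmu-miR-10a-5p, chr11:96317186-96317208, plus strand: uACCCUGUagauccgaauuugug
mmu-miR-10b-5p, chr2:74726074-74726096, plus strand: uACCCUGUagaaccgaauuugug
mmu-miR-196a-5p, chr15:102973365-102973386, plus strand: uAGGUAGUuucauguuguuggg
mmu-miR-196b-5p, chr6:52230129-52230150, minus strand: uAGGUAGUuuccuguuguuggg
miR-10a-5p of the *Hoxb* domain and miR-10b-5p of a *Hoxd* domain shared a seed. miR-196a-5p, which has a hairpin in both the *Hoxc* and the *Hoxb* domain, shared its seed with miR-196b-5p of the *Hoxa* domain. No H3K27ac peak was listed in any of the domains that hold these hairpins. The other 7 hairpins were in domains of lower length rank, among them that of *Mir137* in a domain without a protein-coding TSS.

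The lists differed in size, and the populations were checked on marker genes. The H3K27me3 lists held 36662 to 45081 peaks over 34.5 to 49.8 Mb, and the H3K27ac lists held 46040 to 62505 peaks over 40.8 to 56.3 Mb. Replicate 1 of each population held more H3K27me3 peaks and replicate 2 more Mb. These numbers are therefore no measure of depth, which the lists do not give, and a region without a peak is one where none was called. H3K27ac covered more of 7 of the 9 CIN marker genes in CINs in both replicates. *Lhx6*, a CIN transcription factor gene, had no H3K27ac peak in any list. Of 5 glial markers, 4 had more H3K27ac in non-CINs in both replicates, and *Pdgfra* had more in CINs. More H3K27ac in non-CINs in both replicates was also found for 2 of 6 glutamatergic markers, while 1, *Slc17a6*, had more in CINs (2517 and 1196 bp against 0 and 879 bp). Non-CINs also had more at 1 of 3 microglial and 1 of 3 endothelial markers. *Neurod2* and *Slc17a7*, both genes of excitatory neurons, had no H3K27ac peak in any list and had their TSS in a domain.

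Most domains were short and a few were very long. The median length was 8001.5 bp, with quartiles at 6103.5 and 13412.5 bp, while the median over all shared stretches was 731 bp. At least 10 kb was reached by 356 domains, at least 20 kb by 112, at least 50 kb by 7 and at least 100 kb by 2. The longest domain covered 177625 bp of the *Hoxc* cluster (chr15:102895548-103073172) with the TSSs of *Hoxc4* to *Hoxc13*, which encode homeobox factors of body patterning. The second covered 129758 bp from *Hoxb1* to *Hoxb9* (chr11:96249336-96379093). It was followed by *Zic1* and *Zic4*, zinc finger genes of the dorsal neural tube (76616 bp), by the *Hoxa3* to *Hoxa11* stretch (68306 bp) and by *Pax3*, a neural crest regulator (67252 bp).

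**Figure D1:**
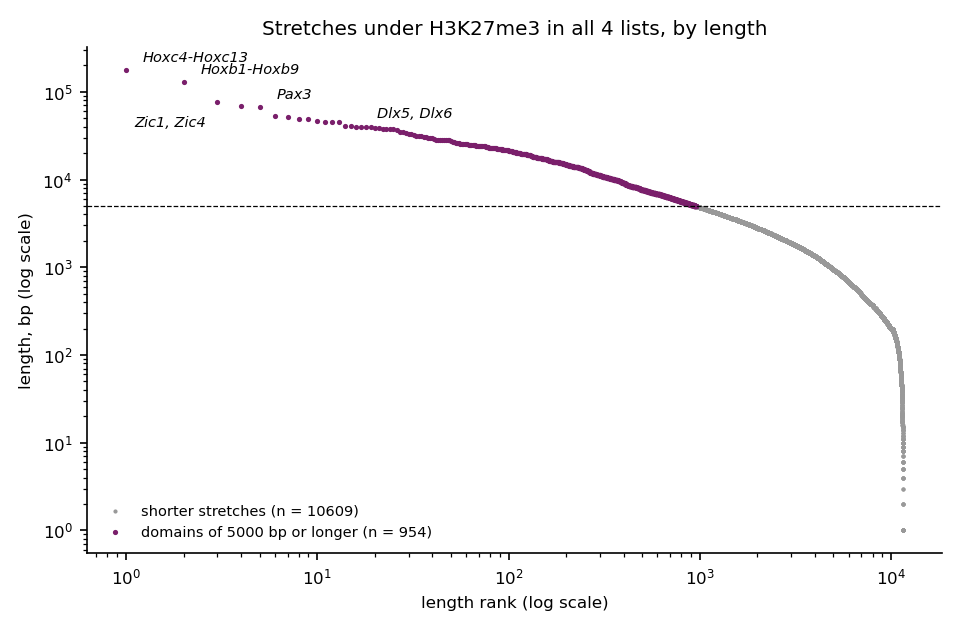
Length in bp of each of the 11563 stretches covered by all 4 H3K27me3 lists (1 point each, both axes logarithmic) against its length rank. The 954 domains lie on or above the dashed line at 5000 bp, and the *Hoxc* and *Hoxb* domains, at 177625 and 129758 bp, are the only stretches above 100000 bp.

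Other domains among the 15 longest held *Hoxd3* and *Hoxd4* (53395 bp), *Hand2*, a heart and limb factor (49535 bp), *Evx2* with *Hoxd8* to *Hoxd13* (48895 bp), *Fezf1*, a zinc finger gene of the ventral forebrain (46186 bp), *Gata4*, a heart and gut factor (45233 bp), *Hoxb13* (45045 bp), *Nkx2-1* (40735 bp) and *Tbx3* (40514 bp). A further domain, of 51597 bp (chr12:56445029-56496625), held no TSS and ended 38481 bp from that of *Nkx2-1*, which specifies interneuron precursors of the medial ganglionic eminence. At these 15 loci H3K27ac was nearly absent. It was listed in 3 of them, with 1146, 0, 2284 and 1160 bp in the *Zic1* and *Zic4* domain (CIN replicates 1 and 2, then non-CIN replicates 1 and 2), 216 bp in 1 list at *Hand2* and 224 bp in 1 list at *Tbx3*. At the threshold the 3 shortest domains measured 5001, 5001 and 5005 bp, and 1 of them held the TSS of *Fstl4*. Another was 156346 bp from that of *Sp4*. The 3 longest stretches left out measured 4994, 4990 and 4989 bp, and 1 of these held *Il11*.

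Neighbouring domains formed groups. With domains 50 kb or less apart joined, there were 721 groups, of which 156 held at least 2 domains and together 389 of the 954. The 4 *Hox* clusters were the 4 groups with the most domain bp, at 194712 bp (*Hoxc*), 174803 bp (*Hoxb* with *Hoxb13*), 170860 bp (*Hoxa* with *Evx1*) and 128512 bp (*Hoxd* with *Evx2*). The fifth was a row of 5 domains at *Nkx2-1* with 108916 bp in 128269 bp of chromosome 12, of which only 1 domain held a TSS. No H3K27ac peak was listed in the *Hoxb*, *Hoxa*, *Hoxd* and *Nkx2-1* groups, and 1 of the 3 domains of the *Hoxc* group had one. By chromosome, domains were densest on chromosome 19 (0.798 per Mb) and sparsest on X (0.0585 per Mb), with none on Y.

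Of the 954 domains, 492 (51.6%) held the TSS of a protein-coding gene, 202 lay in a gene body without a TSS and 260 lay between genes. The share with a TSS was 7.55% among the 10609 shorter stretches. It went with length, from 44.8% of domains shorter than 10000 bp to 53.7% of those from 10000 bp to under 20000 bp and 83.0% of those of 20000 bp or longer, and a longer stretch has more room for a TSS. The 462 domains without a TSS were a median of 30867 bp from the nearest one. Altogether 551 of 21911 protein-coding genes (2.51%) and 231 of 10138 non-coding RNA genes (2.28%) had a TSS in a domain.

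Homeobox, *Pax* and *Gata* families were covered for the most part, and other developmental transcription factor families in part. Of 39 *Hox* genes, 37 had a TSS in a domain, and the missing *Hoxa4* and *Hoxa13* were 240 and 273 bp from one. The domains held 11 of 12 LIM homeobox genes (not *Lhx2*), 11 of 12 sine oculis and Iroquois homeobox genes (not *Six5*), 8 of 9 *Pax* genes (not *Pax4*), 5 of 6 *Gata* genes (not *Gata1*), 11 of 14 NK homeobox genes and 43 of 59 other homeobox genes. *Nkx2-2*, a ventral neural tube factor counted as not covered, was 100 bp from a domain. Among other families the shares were 11 of 17 T-box, 18 of 38 bHLH lineage, 17 of 44 forkhead, 4 of 19 *Sox* and 3 of 15 POU genes. The 3 POU genes were *Pou4f1*, *Pou4f2* and *Pou4f3*, which act in sensory neurons. *Sox2*, *Sox9*, *Sox10* and *Sox11*, which are used in neural progenitors, glia or young neurons, were not covered.

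Genes of secreted signals were covered in part. All 3 hedgehog ligand genes (*Shh*, *Ihh*, *Dhh*) and 11 of 19 WNT genes had a TSS in a domain, as did 6 of 22 FGF genes and 3 of 21 BMP and GDF genes (*Bmp2*, *Bmp4*, *Gdf7*). None of 7 Polycomb and H3K27 demethylase genes and none of 79 ribosomal protein genes did. These lists were written with earlier results of these data known, and no list was tested.

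**Figure D2:**
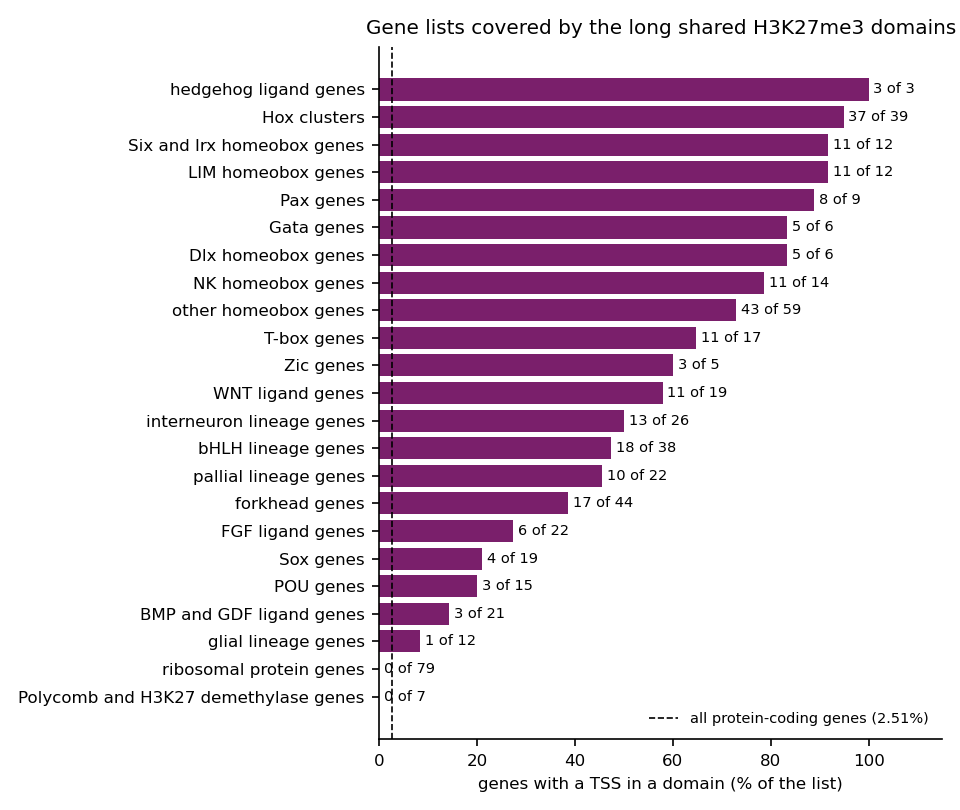
Share of each of the 23 gene lists with a protein-coding TSS in a domain (bars, percent of the list, with the number of genes beside each bar). The dashed line marks all protein-coding genes (2.51%), and the hedgehog ligand, *Hox*, LIM homeobox and sine oculis and Iroquois lists exceed 90% while the 2 lists at 0 are ribosomal protein genes and Polycomb and demethylase genes.

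Genes of the cortical lineages were divided. Of 26 interneuron lineage genes 13 had a TSS in a domain, and H3K27ac in that domain covered more bp in CINs in both replicates for 9 of the 13 (*Nr2f2*, which has a TSS in 2 domains, counted in both directions). The same was true of 4.30% of all domains and 2.06% of all shared stretches, and more in non-CINs in both replicates was found in 2.94% and 0.761%. Domains are longer than the other stretches, which gives H3K27ac more room. *Dlx2*, counted as not covered, was 304 bp from the domain of *Dlx1*. No H3K27ac was listed in any of the 4 lists in the domains of *Lhx6*, *Lhx8*, *Nkx2-1* and *Npy*, genes of medial ganglionic eminence neurons and their peptide. Of 22 pallial lineage genes 10 were covered, among them *Eomes*, *Tbr1*, *Neurog2* and *Fezf2*, and H3K27ac covered more bp in CINs in both replicates for 1 of the 10 (*Slc17a6*) and in non-CINs for 2 (*Fezf2* and *Tbr1*). Of 12 glial lineage genes only *Pdgfra*, of oligodendrocyte precursors, had its TSS in a domain, which had more H3K27ac in CINs, while *Nkx2-2*, *Olig1* and *Olig2* were 100, 810 and 2103 bp from one.

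H3K27ac was absent from most domains. In 784 of 954 (82.2%) no H3K27ac peak was listed in any of the 4 lists, against 89.8% of the shorter stretches, which are smaller targets. The 170 with any H3K27ac included 34 with some in all 4 lists (3.56% of domains, against 2.12% of the shorter stretches). Some in both CIN lists and neither non-CIN list was found in 16 (1.68% of domains, against 0.986% of all 11563 stretches). The reverse was true of 6 (0.629% of domains, against 0.216% of all stretches). Those 6 were at *Tfap2c*, *Lef1*, *Cyp1b1* and *Rbm20* and near *Zdbf2* and *Msx1*; they were named after their values were seen. H3K27ac covered 2.67% and 1.87% of the domain bp in CIN replicates 1 and 2 and 1.18% and 1.05% in non-CIN replicates 1 and 2. Both CIN values were above both non-CIN values, and the means of 2.27% ± 0.567 (SD, n = 2) and 1.11% ± 0.0930 (SD, n = 2) differed by 1.16 percentage points (two-sided exact permutation test, p = 0.333, the smallest that 2 lists against 2 allow). The difference was 0.756 percentage points without CIN replicate 1 and 1.56 without CIN replicate 2. As a share of all bp in a H3K27ac list, the domains took 0.498% and 0.480% in the CIN lists, compared with 0.243% and 0.250% in non-CINs (exact permutation test, p = 0.333). In the shorter stretches the values overlapped, at 3.71% and 1.97% in the CIN lists, compared with 2.19% and 1.54% in non-CINs (exact permutation test, p = 0.667).

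A few domains carried most of this difference. In replicate 1 the CIN list covered 163936 bp more of the domains than the non-CIN list, and the 7 domains at *Dlx5* and *Dlx6*, *Dlx1*, *Sp9*, *Gad1*, *Gad2*, *Sp8* and *Slc32a1* held 61.1% of that excess. In replicate 2 they held 94.3% of an excess of 90300 bp. In the other domains H3K27ac covered 1.77% and 1.10% of bp in CINs and 1.19% and 1.05% in non-CINs. The 7 were taken as those with the largest differences, so these shares are a description.

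In 41 domains H3K27ac covered more bp in CINs in both replicates (4.30%, against 2.06% of all shared stretches). A longer stretch has more room for H3K27ac. Among stretches with any H3K27ac, the share was 24.1% of the 170 domains and 18.3% of the 1077 shorter stretches. The largest difference was in the domain of *Dlx5* and *Dlx6* (chr6:6843363-6883461, 40099 bp), homeobox genes that direct interneuron development. H3K27ac covered 29708 and 28565 bp of it in CIN replicates 1 and 2 and none in either non-CIN list. The domain of *Dlx1* (chr2:71523375-71546450, 23076 bp) was covered over its whole length in CIN replicate 1, over 22000 bp in CIN replicate 2 and not at all in non-CINs. *Sp9*, a zinc finger gene of migrating interneurons, had 12993 and 9631 bp in CINs and none in non-CINs. In all 3 domains the populations were fully separated.

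The same was seen at genes of GABA synthesis and transport. The *Gad1* domain had 10492 and 8610 bp under H3K27ac in CINs, compared with 219 and 0 bp in non-CINs, and the sort itself used this gene. At *Gad2*, which encodes the second GABA-synthesizing enzyme, the values were 8021 and 7189 bp in the CIN lists and 0 and 95 bp in the non-CIN lists, so that the whole domain of 8021 bp was covered in CIN replicate 1. At *Slc32a1*, the vesicular GABA transporter gene, they were 6441 and 3655 bp in CINs and 0 in both non-CIN lists. None of the 3 overlapped between the populations.

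Further CIN differences were at transcriptional regulators. *Sp8* had 10176 and 6100 bp in the CIN lists and 546 and 498 bp in the non-CIN lists. *Runx1t1*, a corepressor gene, had 4060 and 3374 bp in the CIN lists and 91 and 343 bp in the non-CIN lists. *Vax1*, a homeobox gene of the ventral forebrain, had 5003 and 2960 bp in CINs only, and *Myt1l*, a neuronal zinc finger gene, had 3612 and 2906 bp in CINs only. In the other 31 domains in this direction, the smaller of the 2 replicate differences was between 7 and 2664 bp, and 19 of the 41 held no TSS.

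In 28 domains H3K27ac covered more bp in non-CINs in both replicates (2.94%, against 0.761% of all shared stretches). Among stretches with any H3K27ac, the share was 16.5% of the domains and 5.57% of the shorter stretches. The smaller of the 2 replicate differences had a median of 354 bp here and of 903 bp in the 41 domains with more in CINs, and 13 of the 28 held no TSS. *Fezf2*, a zinc finger gene that specifies corticofugal excitatory neurons (chr14:12339136-12353752), had 7957 and 6787 bp in the non-CIN lists and 5263 and 2576 bp in the CIN lists, so it was acetylated in both populations. The domain 590 bp from the homeobox gene *Dbx2* had 3426 and 3586 bp in the non-CIN lists and 2070 and 1001 bp in the CIN lists. *Grb10*, an imprinted gene for a growth factor receptor adaptor, had 1297 and 2047 bp in the non-CIN lists and 47 and 0 bp in the CIN lists. *Lef1*, a transcription factor of WNT signalling, had 2239 and 1226 bp in non-CINs and none in CINs. At these 4 loci the lists of the populations did not overlap.

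The next domains were closer. *Zic1* and *Zic4* had 2284 and 1160 bp in the non-CIN lists and 1146 and 0 bp in the CIN lists. The domain 2103 bp from *Olig2*, a bHLH gene of the oligodendrocyte lineage, had 6278 and 7128 bp in the non-CIN lists and 5463 and 6255 bp in the CIN lists. A domain at *Nr2f2*, an orphan nuclear receptor gene (chr7:70362134-70377214), had 1162 and 5405 bp in the non-CIN lists and 403 and 1694 bp in the CIN lists, and that of *Lipg*, the endothelial lipase gene, had 1750 and 716 bp in the non-CIN lists and 828 and 0 bp in the CIN lists. Both overlapped between the populations. The second *Nr2f2* domain, of 39570 bp, was among the 41 with more in CINs, at 9711 and 8748 bp against 6045 and 8112 bp. The domains 328 bp from *Sp5*, a WNT target gene, and 282 bp from *Fzd10*, a WNT receptor gene, had 1034 and 846 bp and 1302 and 1166 bp in non-CINs, against 0 and 175 bp and 0 and 535 bp in CINs.

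**Figure D3:**
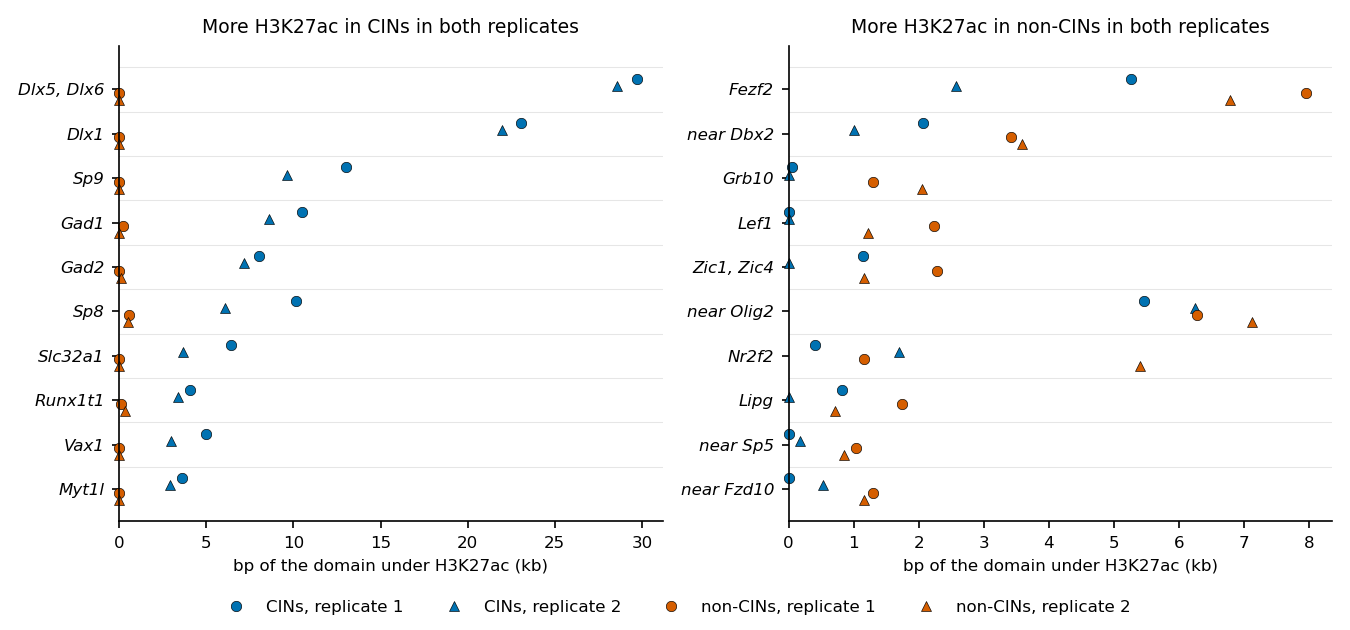
Kilobases of each domain under H3K27ac in the 4 lists (points: blue for CINs, orange for non-CINs, circles for replicate 1, triangles for replicate 2) in the 10 domains with the largest lower difference over replicates in each direction. At *Dlx5* and *Dlx6* the CIN lists reach 29708 and 28565 bp and both non-CIN lists are at 0, while at *Fezf2* all 4 lists hold H3K27ac. The panels have different axes.

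The 28 domains rested more on small differences than the 41. With a difference of at least 500 bp required in each replicate, a setting chosen after seeing the data, 28 domains remained above in CINs and 11 in non-CINs. With no replicate block, where both lists of one population had to exceed both of the other, the counts were 36 and 18. They were 37 and 18 with replicate numbers crossed, and 32 and 13 at H3K27ac −log10 q of at least 4. Without CIN replicate 2 the count for CINs was 97, and without non-CIN replicate 2 that for non-CINs was 57. Leaving out a list drops a condition from the rule that gave 36 and 18, so counts can only rise from there. These settings were not run over all shared stretches.

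H3K27ac reached the TSS in few domains. Of the 551 genes with a TSS in a domain, 512 (92.9%) had none of those TSSs under H3K27ac in any list, against 47.6% of all 21938 annotated protein-coding gene records. For the gene records every annotated TSS was scored, but for the 551 genes only those inside a domain. The shares set side by side here are therefore unlike measures. In 11 genes such a TSS was under H3K27ac in both CIN lists and neither non-CIN list (2.00%, against 0.857% of all gene records). These were *Dlx1*, *Dlx5*, *Dlx6*, *Gad1*, *Gad2*, *Sp9*, *Vax1*, *Runx1t1*, *Myt1l*, *Islr2* and *Slc17a6*, the last of which encodes a glutamate transporter. The reverse was found for 1 gene, *A930009A15Rik* (0.181%, against 0.369% of all gene records). In 5 genes, *Fezf2*, *Pax6*, *Rbpjl*, *Sfi1* and *Zc3hav1*, it was under H3K27ac in all 4 lists. At *Fezf2*, 2 of 3 annotated TSSs were covered in each list. At *Lef1*, 1 of 2 TSSs was covered in non-CIN replicate 1 and neither in replicate 2, and at *Grb10* and *Zic1* the H3K27ac of non-CINs met no TSS inside the domain. Genes outside the rule by size, such as *Islr2*, were named after their values were seen.

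**Figure D4:**
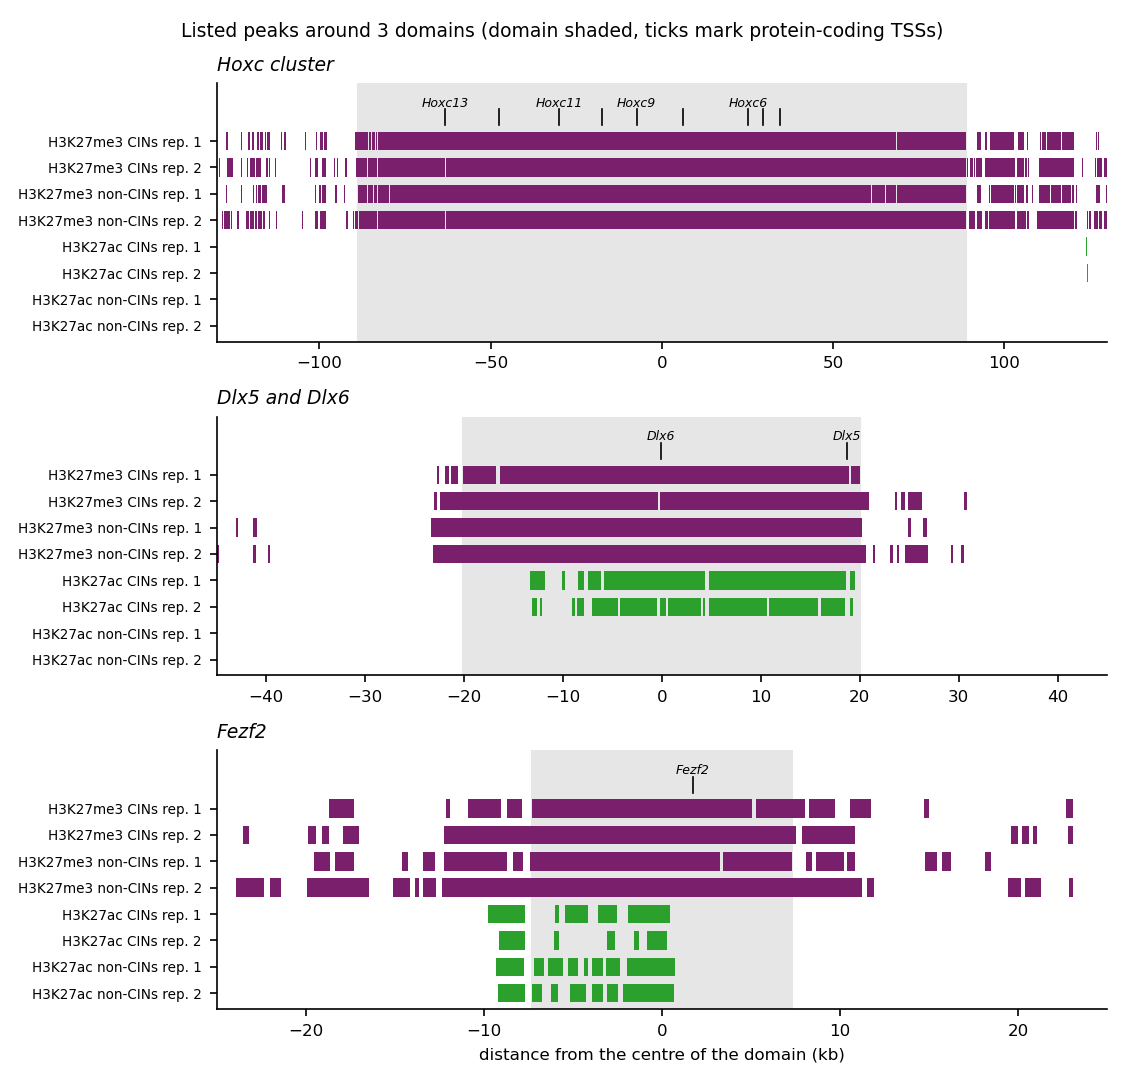
Listed peaks of the 8 lists (rows, purple for H3K27me3 and green for H3K27ac) by distance in kb from the centre of the *Hoxc*, the *Dlx5* and *Dlx6* and the *Fezf2* domain (shaded), with ticks at protein-coding TSSs. No H3K27ac peak meets the *Hoxc* domain, H3K27ac covers 29708 and 28565 bp of the *Dlx5* and *Dlx6* domain in CINs and none in non-CINs, and at *Fezf2* it lies on 1 side of the domain in all 4 lists.

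Within each H3K27me3 list, the fold enrichment of a peak over input was turned into its percentile among the peaks of that list, and a domain was given the mean over its peaks weighted by bp. The same lists chose the domains, so these values are a description. The median percentile of the domains was 96.9 and 97.5 in CIN replicates 1 and 2 and 97.5 and 98.0 in non-CIN replicates 1 and 2, against 66.9, 81.1, 72.7 and 84.8 in the shorter stretches. The lowest domain was at 51.4 in CIN replicate 1. Domains of 20000 bp or longer had medians of 98.9 and 99.3 in the CIN lists, compared with 99.03 and 99.4 in non-CINs. The percentile was higher in CINs in both replicates for 185 domains (19.4%, against 21.6% of the 11431 shared stretches with a value in each list) and higher in non-CINs in both for 452 (47.4%, against 42.1%), so both shares were near those of all stretches. With no replicate block, where both lists of one population had to exceed both of the other, the counts were 111 and 291. Without non-CIN replicate 2, both CIN lists had only to exceed non-CIN replicate 1, and the count for CINs was 295. Neither setting was run over all shared stretches. The median difference, CINs minus non-CINs, was -0.31 percentile points in replicate 1 and -0.18 in replicate 2. A percentile depends on how many weaker peaks its list holds. The CIN lists held 38158 and 36662 peaks and the non-CIN lists 45081 and 42575, and the effect of list size was not tested.

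The domains with the largest differences above non-CINs in CINs were those 4665 bp from *Dmrt3* (percentiles 91.8 and 97.5 in CINs, 65.6 and 85.0 in non-CINs), 85873 bp from *Mbip* in the *Nkx2-1* group (89.5 and 74.6 against 70.9 and 66.1), 2103 bp from *Olig2* (90.5 and 95.1 against 62.1 and 87.1), at *Pax6*, a regulator of dorsal progenitors (96.6 and 97.2 against 83.7 and 91.9), and 810 bp from *Olig1* (88.2 and 90.4 against 79.1 and 85.3). With the largest differences above CINs in non-CINs were domains 64290 bp from *Ppp1r3b* (72.9 and 75.7 in CINs, 94.4 and 94.3 in non-CINs), in *Syne3* (71.7 and 81.9 against 96.8 and 96.5), in *Rbms3* (73.4 and 83.3 against 91.5 and 93.8), in *A830018L16Rik* (70.7 and 86.0 against 92.5 and 95.8) and 3248 bp from *Tll2* (84.4 and 87.7 against 94.1 and 97.0). H3K27ac in these last 5 was limited to 91 bp in 1 list at *Syne3*. Among the 5 with the higher percentile in CINs, it was listed in every list at *Pax6* and near *Olig2* and *Olig1*. It was listed in none near *Dmrt3* and *Mbip*.

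H3K27me3 ranks and H3K27ac moved in opposite directions in most of the domains with more H3K27ac in CINs. Of these 41, the H3K27me3 percentile was higher in non-CINs in both replicates in 31 (75.6%) and higher in CINs in 6. Among the 784 domains without H3K27ac, it was higher in non-CINs in 364 (46.4%). At *Dlx5* and *Dlx6* it was 96.1 and 99.3 in CINs and 99.9 in both non-CIN lists. It was 93.4 and 97.3 against 99.1 and 98.9 at *Gad1*, 96.2 and 97.3 against 99.3 and 99.2 at *Gad2*, and 74.7 and 95.6 against 95.3 and 98.4 at *Runx1t1*. The median difference over the 41 was -2.92 percentile points in replicate 1 and -1.19 in replicate 2. Of the 28 domains with more H3K27ac in non-CINs, 13 (46.4%) had the higher percentile in CINs and 12 (42.9%) in non-CINs, where the domains without H3K27ac had 19.0% and 46.4%. The 28 had median differences of 0.80 and 0.28 percentile points. Since regions are not replicates and the percentile belongs to the mark that chose the domains, these counts were not tested.

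**Figure D5:**
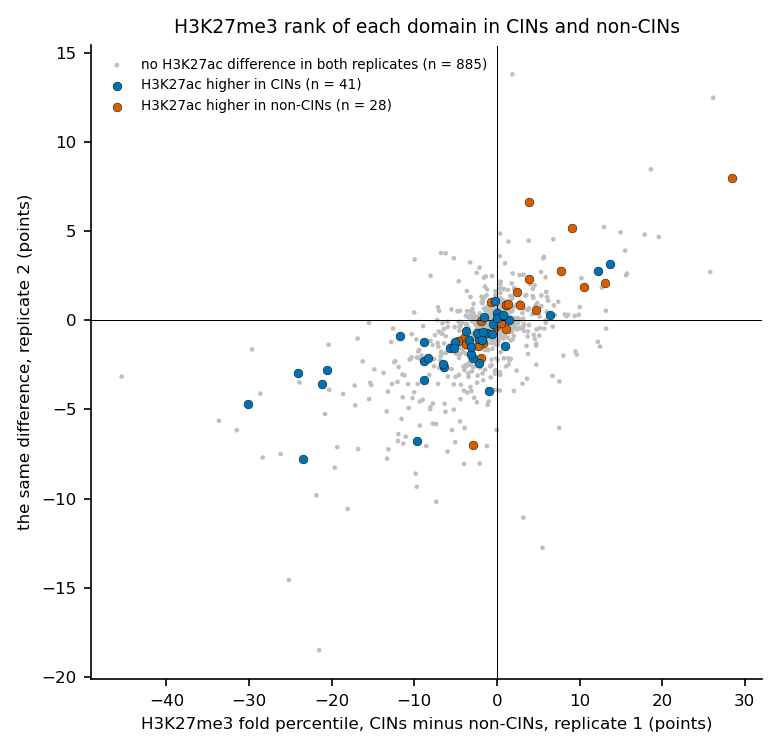
Difference in H3K27me3 fold percentile, CINs minus non-CINs in percentile points, in replicate 1 (horizontal) and replicate 2 (vertical) for each of the 954 domains, colored by the direction of H3K27ac. Of the 41 domains with more H3K27ac in CINs (blue), 31 lie below 0 in both replicates, while the 28 with more in non-CINs (orange) divide into 13 above (46.4%) and 12 below 0 (42.9%) in both. Of all 954 domains, 19.4% lie above and 47.4% below 0 in both.

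In 4 domains H3K27ac covered at least 70% of the bp in every list, and their part in the counts was measured. The domain of *Sfi1* (chr11:3184253-3200077) was covered over 99.4% and 99.8% in the CIN lists, compared with 91.6% and 93.8% in non-CINs, at a H3K27me3 percentile of 98.8 or higher in each list, and it counted as 1 of the 41. Whether reads from near-identical copies fell on this domain was not tested. A domain of chromosome 17 (chr17:39842865-39849642) was covered over 74.9% to 76.9% and holds the start of *Gm42418*, which RefSeq lists as a copy of 18S ribosomal RNA (*Rn18s-rs5*), a multicopy gene. It also counted among the 41, by 98 and 37 bp. The other 2 were 13408 bp from *Nr2f1* and 2103 bp from *Olig2*. Without these 4, a setting chosen after seeing the data, H3K27ac covered 2.31% and 1.501% of domain bp in CINs and 0.827% and 0.677% in non-CINs, again with no overlap (exact permutation test, p = 0.333). The counts were then 39 domains with more H3K27ac in CINs and 27 in non-CINs.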

How the data were processed

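Native ChIP-seq for H3K27ac and H3K27me3 was analysed in GFP+ CINs and GFP- non-CINs, with 2 replicates each. Reads were aligned by the authors with BWA 0.7.15 (genome mm10), filtered with samtools, and used to call broad peaks against matched input with MACS2, whose version is 2.2.7 in the submitters' processing notes and another in the methods. For each peak the authors deposited a score (a scaled −log10 q), a fold enrichment (a ratio of ChIP to input signal), and −log10 p and −log10 q values. Only positions, fold enrichment and −log10 q were used, and the read depth behind a list is not given in the sources used here.

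In each list, neighbouring peaks were joined when 500 bp or less lay between them, and stretches covered by all 4 H3K27me3 lists were found with Python 3.11.15 and numpy 2.4.6. The domains equalled those of bedtools 2.31.1, and the steps were tested on simulated data. TSSs came from the GENCODE vM21 basic annotation. A domain was called for a population when its value was higher in both replicates, compared by replicate number, as the study's methods do. Over the 170 domains with H3K27ac, the difference between replicates 1 and 2 in CINs correlated with that in non-CINs at r = 0.13, and over the 954 domains the correlation for H3K27me3 percentiles was 0.38. These are correlations across regions, which are not replicates. Shares of bp were compared over lists with a two-sided exact permutation test (scipy 1.17.1), which with 2 lists against 2 cannot give p below 0.333. No count model was used, since the lists hold no counts.

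Members and gene lists were chosen with earlier results of these data known. Named genes are those of the 15 longest domains, the 5 largest groups, the 10 domains with the largest H3K27ac difference and the 5 with the largest H3K27me3 percentile difference in each direction (by the smaller of the 2 replicate differences), those next to the 5000 bp threshold, and examples from the lists. Alternatives were other merging gaps, lengths and q thresholds, H3K27ac peaks as listed, other percentiles, no or crossed replicate numbers, and leaving out each list. Values of a few genes are not reported here.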

Additional observations from a re-analysis of the deposited data

How the results depend on the processing

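The number of domains stayed within 1.5 times of 954 under every merging gap and q threshold and without any 1 H3K27me3 list, where it was 970 to 1172. A minimum of 10000 bp left 356. The share with a TSS was 48.1% at a minimum of 4000 bp and 62.9% at 10000 bp, and 46.0% to 52.8% without 1 list, lowest without CIN replicate 1. The difference in H3K27ac share kept its direction under all alternatives. Without 1 list it was 0.756 to 1.56 percentage points, lowest without CIN replicate 1. Leaving out a list could not reverse it, since both CIN values were above both non-CIN values. A replicate block leaves the mean difference unchanged by construction, at 1.16 (exact sign-flip permutation, p = 0.5, the smallest that 2 pairs allow).

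Counts of domains by direction depended more on the setting. The settings were not run over all shared stretches, so no share of these stands beside the counts. With no replicate block, where both lists of one population had to exceed both of the other, 36 domains had more H3K27ac in CINs and 18 in non-CINs, and 111 and 291 had the higher H3K27me3 percentile. With the pairing of replicate numbers crossed, the count with more H3K27ac in non-CINs was also 18. It was 13 at −log10 q of at least 4 and 11 with a difference of at least 500 bp. At a minimum of 10000 bp, 20 and 8 domains had more H3K27ac in CINs and non-CINs, and 67 and 166 had the higher H3K27me3 percentile. Without 1 list, every remaining list of one population had to exceed every remaining list of the other. Without 1 H3K27ac list the counts ranged from 40 to 97 for CINs, highest without CIN replicate 2, and from 21 to 57 for non-CINs, highest without non-CIN replicate 2. Without 1 H3K27me3 list they ranged from 172 to 295 for CINs, highest without non-CIN replicate 2, and from 357 to 529 for non-CINs. For the settings with fewer domains, the construction of the setting lowers the count. Leaving out 1 list can only keep or raise the counts found with no replicate block, since it drops a condition. For the others the cause was not tested. All other alternatives stayed within 1.5 times of the reported value, and none reversed a direction.

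Coverage is not part of the lists, so a domain without H3K27ac is one where no peak was called, and read depth cannot be weighed.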
